A study of Homo sapiens with 12 samples.

Results

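Compact core regions are stretches of chromatin under 3000 bp that carried a peak of H3K27ac in every untreated library of 5 human cancer cell lines. They were selected on the authors' peak calls and their widths, by merging overlapping peaks (at least 1 bp) of 8 lists on chromosomes 1 to 22 and keeping each region with a peak in all 8 lists and a merged width under 3000 bp. Of 68750 merged regions, 8409 were core regions with a peak in every list, and 7241 of these were compact, or 10.5% of all merged regions and 86.1% of the core (95% Wilson interval 85.4 to 86.8, counting error only). The other 1168 core regions were 3000 bp wide or more, and 60341 regions lacked a peak in at least 1 list.

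The mark is acetylation of lysine 27 on histone H3, measured by chromatin immunoprecipitation and sequencing with 1 antibody. The lines were the lung adenocarcinoma lines H358 and H2009 (2 libraries each), the squamous lung carcinoma line HCC95 (1), the endometrial carcinoma line Ishikawa (2) and BICR31 (1). BICR31 is labelled lung adenocarcinoma among the samples, while the series design names BICR-31 as a head and neck squamous line. A further 4 H2009 libraries labelled e3KRAB1, e3KRAB2, Empty and Control (1 each) were not used to choose the regions. All lines were grown in RPMI medium with serum and every sample is labelled as receiving no treatment, so the word untreated is used below only for the 8 libraries whose titles carry none of those 4 names. The labels do not expand e3, KRAB, Empty or Control, and name no promoter, clone or vector. Peak names carry the tag N1 in the e3KRAB1 list, Ctrl2 in the e3KRAB2 list, NoSg in the Empty list and D98 in the Control list. The tag Ctrl2 goes against the label e3KRAB2 and the tag D98 does not match the label Control, so below e3KRAB2 and Control stand for the libraries labelled so.

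Enzymes of the p300 and CBP family place this acetyl group on nucleosomes beside active promoters and enhancers. The DNA between the marked nucleosomes, where transcription factors and polymerase sit, is often free of nucleosomes, so that 1 active element can give a pair of flanking humps. Acetylation at promoters of genes used by most cells tends to be shared between cell types, and acetylation at enhancers tends to differ. No annotation of the files' build, hg19, was used, so the regions are given by position and not by gene, and their sequence was not analysed here.

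Lists of 3 file forms entered the merge. Those of H358 and H2009 were narrowPeak files (25719 to 26344 peaks used in the untreated libraries), the lists of HCC95 (22850) and BICR31 (41161) were broadPeak files, and those of Ishikawa (23623 and 26474) had 5 columns. Median peak width ran from 348 bp in H2009 replicate 1 to 1522 bp in Ishikawa replicate 1. The value of a peak is the authors' fold enrichment, or in Ishikawa the authors' score, and it ranks peaks only within its own list. No read counts came with the lists, so the depth of the libraries is unknown.

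The width of the regions was set largely by 1 library. Ishikawa replicate 1 supplied the left border of 69.6% of the compact core regions and the right border of 70.9%, and in 3348 of them (46.2%) a single peak of that library spanned the whole region. Ishikawa replicate 2 supplied 17.2% of left borders, BICR31 7.58%, HCC95 2.49%, and each narrowPeak list about 1% or less (0.746% to 1.02%). Without Ishikawa replicate 1 the compact share of the core was 93.0%.

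Merged width had a median of 2056 bp and quartiles of 1711 and 2400 bp. The median was 3462 bp in the wider core regions. In regions lacking a peak in at least 1 list it was 722 bp (quartiles 365 and 1295). Compact core regions were thus compact only beside the wider core, and mostly wider than the other regions. Only 109 regions were under 1000 bp, 3205 lay from 1000 to 1999 bp and 3927 were 2000 bp or wider. There were 1411 core regions in the 500 bp below the width limit and 611 in the 500 bp above it. Just inside lay chr1:16838901-16841898, chr6:44213194-44216191 and chr2:262947-265944 (2998 bp each), and just outside chr4:129207598-129210597 and chr4:3292969-3295968 (3000 bp each) and chr14:21850827-21853827 (3001 bp). The narrowest members were chr10:103124420-103124894 (475 bp), chr17:16492241-16492804 (564 bp) and chr5:142092537-142093206 (670 bp).

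Within a region the lists called very different lengths. The median called length was 693 and 711 bp in the H358 libraries, 622 and 661 bp in those of H2009, 1936 and 1601 bp in Ishikawa, 1261 bp in BICR31 and 953 bp in HCC95. As a median share of the region the narrowPeak lists covered 31.4% to 36.0%, HCC95 47.9%, BICR31 63.3% and Ishikawa 99.2% and 80.3%.

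A peak in every list did not always mean a base in every list. In 6429 regions (88.8%) at least 1 base was called in all 8 libraries, and the median over all compact core regions was 315 such bases (quartiles 203 and 457), or 16.3% of the region. In the other 812 regions no base was shared by all 8. When the peaks of every list had to cover at least 50% of the region, 91 compact core regions were left.

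The narrowPeak lists often split a region into a pair of peaks. In H358 31.9% and 34.0% of the compact core regions held exactly 2 peaks, and in H2009 32.1% and 32.2%, against 0.0276% in HCC95, 0.677% in BICR31, 6.85% in Ishikawa replicate 1 and 23.9% in Ishikawa replicate 2. The summits of such a pair lay a median of 660 bp apart in H358 replicate 1, 674 bp in H358 replicate 2, 647 bp in H2009 replicate 1 and 664 bp in H2009 replicate 2. The uncalled gap between the peaks had a median of 255 to 270 bp in these 4 lists. Spacing and gap were thus nearly the same in both lines and in all 4 libraries. The share of regions with exactly 2 peaks was not taken over the wider core or the other regions. Whether such pairs are particular to the compact core is therefore not known.

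The stronger peak of a pair often changed sides between libraries. In 551 regions all 4 narrowPeak lists held exactly 2 peaks. The peak with the higher fold enrichment lay on the same side in 60.8% of these in the replicates of H358 and in 57.0% in the replicates of H2009. Between H358 and H2009 libraries the share was 59.2% to 62.3%. This range lay above the value of the H2009 replicates and took in that of the H358 replicates. All 4 libraries had the stronger peak on the same side in 162 regions (29.4%).

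Summits, the positions of the highest signal within a peak, are given in the narrowPeak lists alone. For each region the summit of the strongest peak in each of the 4 libraries was taken, and the range over the 4 was the distance from the first to the last. The range had a median of 272 bp (quartiles 131 and 598), or 14.4% of the region's width. It was 100 bp or less in 1199 regions (16.6%) and over 500 bp in 2283 (31.5%). The histogram of summit ranges has its maximum near the low end, followed by a flatter stretch that takes in the spacing of the paired peaks given above. In the 2622 regions with 1 peak in each of the 4 lists the median range was 178 bp, against 444 bp in the others.

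**Figure D1:**
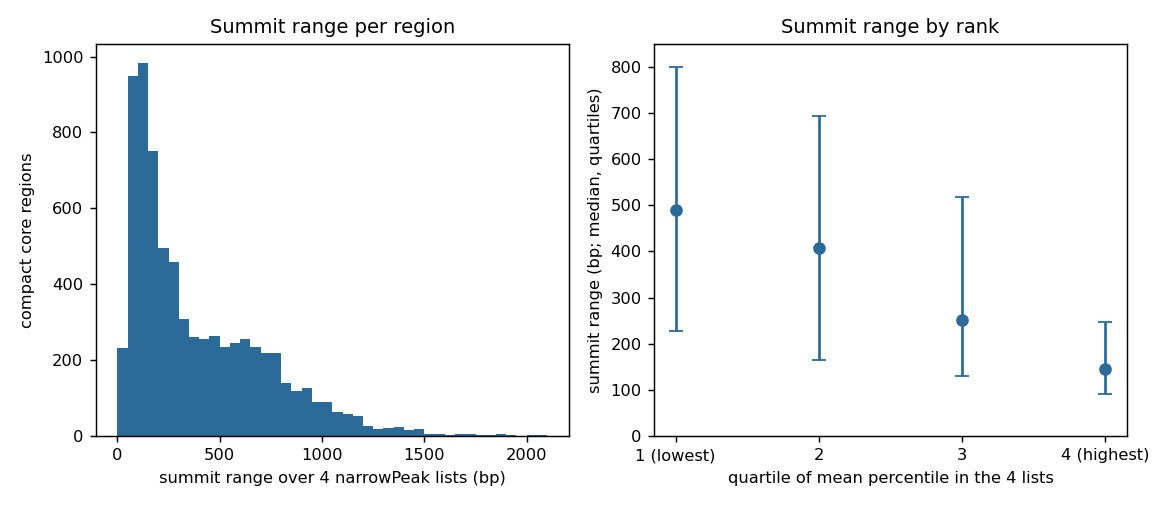
Left, number of compact core regions (y axis) by the range of the strongest summit over the 2 H358 and 2 H2009 libraries in bp (x axis, bins of equal width). Right, median and quartiles of that range in bp (y axis) by quartile of the mean percentile of the region's peaks in those 4 lists (x axis): the median is 490 bp in the lowest quartile and 144.5 bp in the highest.

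Stronger regions had tighter summits. The median summit range was 490 bp in the quartile with the lowest mean percentile in the 4 lists, then 406.5 and 250.5 bp, and 144.5 bp in the highest quartile. Region width moved the same way, with medians of 2206, 2134.5, 2016.5 and 1882.5 bp in these quartiles, and its part in the result was not tested. Among the 4512 regions in the upper 50% of all 4 lists, the tightest summits lay at chr15:38746019-38747674 (38746522, 38746523, 38746524 and 38746524, a range of 2 bp) and chr4:68264167-68266903 (a range of 3 bp). The next were chr1:16838901-16841898 (8 bp) and chr10:103124420-103124894 (10 bp). Repeat content at these 4 positions was not analysed here. The widest lay at chr16:47493884-47496633, where the H358 summits at 47494937 and 47494795 and H2009 replicate 1 at 47494701 stood apart from H2009 replicate 2 at 47496403, a range of 1702 bp. Next came chr9:33263296-33266042 (1536 bp), chr18:12946299-12949237 (1530 bp) and chr16:68117827-68120757 (1470 bp).

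Summit distances were alike within and between the lung adenocarcinoma lines. The median distance was 92 bp between the H358 replicates and 106 bp between the H2009 replicates. Between an H358 and an H2009 library it was 99 and 99 bp for H358 replicate 1 and 102 and 101 bp for H358 replicate 2. The mean over replicate pairs was 99 bp and that over the 4 pairs of different lines 100.25 bp, a difference of -1.25 bp (exact one-sided permutation p = 0.333, the smallest that 3 assignments allow). The H2009 replicates were farther apart than any pair of an H358 and an H2009 library. The difference was 4.5 bp without H358 replicate 1 and 7 bp without H358 replicate 2, the other way round.

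Peaks of the compact core ranked high in every list. The median percentile of the strongest peak, where 100 is the top of the list, was 80.5 and 80.2 in the H358 libraries, 77.9 and 76.9 in those of H2009, 79.3 and 80.9 in Ishikawa, 82.7 in BICR31 and 74.2 in HCC95. Presence in all lists chose the regions, so these levels are a description. In regions lacking a peak in at least 1 list the medians ran from 33.8 to 44.8. The median fold enrichment of the compact core was 6.91 and 6.87 in H358, 6.45 and 6.39 in H2009, 4.72 in BICR31 and 4.34 in HCC95, and the median score was 303 and 336 in Ishikawa.

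**Figure D2:**
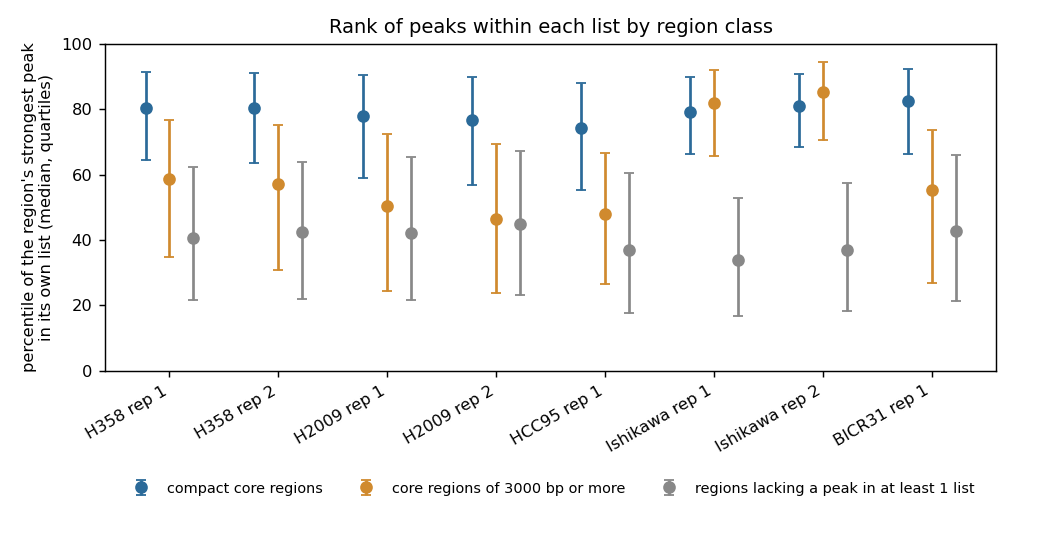
Percentile of a region's strongest peak within its own list (y axis, 100 is the strongest peak of the list; points are medians, bars the quartiles) in the 8 untreated libraries (x axis) for compact core regions, core regions of 3000 bp or more and the other regions with a peak in that list. Compact core regions lie above the wider core regions in the narrowPeak and broadPeak lists, with medians of 74.2 to 82.7, and not in the Ishikawa lists.

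Compact core regions ranked above the wider core regions by fold enrichment, but not by Ishikawa score. In core regions of 3000 bp or more the median percentile was 58.8 and 57.1 in H358, 50.4 and 46.5 in H2009, 55.3 in BICR31 and 47.9 in HCC95, each below the compact core, and 82.0 and 85.2 in Ishikawa, above it. Ranked by the −log10 p of the same peaks, the compact core stood at 79.9 and 79.7 in H358, 77.7 and 77.3 in H2009, 85.6 in BICR31 and 72.9 in HCC95. The wider core regions then stood at 76.9 and 75.7 in H358, 71.8 and 72.1 in H2009, 83.4 in BICR31 and 68.5 in HCC95. The compact core was still the higher of the 2 classes in these 6 lists, by a smaller gap than by fold enrichment.

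The same contrast between forms ran through the compact core itself. In the lowest width quartile (475 to 1711 bp) the median percentile was 85.0 and 85.4 in H358, 83.8 and 83.9 in H2009, 89.6 in BICR31 and 79.1 in HCC95, and 69.0 and 72.1 in Ishikawa. In the highest width quartile (2401 to 2998 bp) it was 75.3 and 73.2 in H358, 70.7 and 67.6 in H2009, 72.8 in BICR31 and 67.5 in HCC95, and 85.2 and 86.5 in Ishikawa. Fold enrichment was thus lower in wider regions in 6 libraries, and the score higher in wider regions in both Ishikawa libraries. Region width followed called length most closely in Ishikawa, with Spearman correlations of 0.890 and 0.780. They were 0.613 in BICR31, 0.514 in HCC95 and 0.279 to 0.349 in the narrowPeak lists. The part of this in the contrast was not tested. File form, kind of value (fold enrichment or score) and line cannot be told apart here, since no line had lists of 2 forms.

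Few regions were near the top in all lists. At or above percentile 50 in all 8 lists were 3545 regions (49.0%), at or above 75 were 739 (10.2%), and at or above 90 were 62 (0.856%), although 5457 (75.4%) reached 90 in at least 1 list. Only 18 regions lay below 50 in all 8. The range from a region's lowest to its highest percentile had a median of 43.7 points (quartiles 30.8 and 58.5) and exceeded 50 points in 2801 regions (38.7%). The same counts over all core or all merged regions were not taken. With 8 lists, a high rank in at least 1 is reached more readily than one in all, so these shares are a description.

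The regions with the highest lowest percentile were led by chr1:16991553-16994493, which did not fall below 99.5 in any of the 8 lists. Its fold enrichment was 14.1 and 16.3 in H358, 11.8 and 11.9 in H2009, 8.55 in BICR31 and 6.46 in HCC95, and its score 605 and 836 in Ishikawa. Next came chr1:17065780-17068418 (lowest percentile 98.1), chr2:74618227-74619902 (98.0) and chr12:73489-75267 (97.4), followed by chr1:121482984-121485607 (96.4), chr16:75549748-75551312 (96.4), chr1:28419-30163 (96.1) and chr3:73159728-73160402 (95.2). The first pair lies on the same arm of chromosome 1 as chr1:16838901-16841898, named above for its tight summits, which had fold enrichments of 15.2 and 12.8 in H358 and a lowest percentile of 93.5.

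The highest value of every untreated list except that of HCC95 lay in a compact core region. The region at chr3:73159728-73160402, 675 bp wide, held the strongest peak of all 4 untreated narrowPeak lists, at 22.6 and 21.4 in H358 and 19.3 and 19.3 in H2009, and 13.2 in BICR31, the highest value of that list too. In HCC95 it stood at 5.39 and in Ishikawa at 496 and 639. It also had a peak in each of the 4 further H2009 lists, with fold enrichments of 7.92 in e3KRAB1, 8.34 in e3KRAB2, 12.5 in Empty and 12.9 in Control. The region at chr1:121482984-121485607, which lies beside the centromere of chromosome 1, held the highest score of both Ishikawa lists, 3162 and 3100, against medians of 303 and 336 over the compact core. It had a fold enrichment of 10.7 and 11.3 in H358, 10.9 and 10.3 in H2009, 5.92 in BICR31 and 5.81 in HCC95. Repeat content and copy number at these positions were not analysed here.

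Ranks of the regions agreed between replicates and only weakly between lines. Across the 7241 regions, the Spearman correlation of the value was 0.827 between the Ishikawa replicates, 0.542 between the H358 replicates and 0.503 between the H2009 replicates. Between different lines it ran from 0.129 for Ishikawa replicate 1 with BICR31 to 0.446 for H358 replicate 2 with H2009 replicate 2. These correlations are across regions, which are not independent replicates, and the points share their libraries, the antibody and base composition. The mean was 0.624 over the 3 replicate pairs and 0.281 over the 25 pairs of different lines, and the difference of 0.343 was the highest of 420 ways to place 3 pairs among 8 libraries (exact one-sided permutation p = 0.00238, the smallest these allow; 0.00357 after Benjamini-Hochberg adjustment over 3 tests). Without Ishikawa replicate 1 the difference was 0.207, and without Ishikawa replicate 2 it was 0.214 (exact one-sided permutation p = 0.00952 for each). Whether replicates came from separate cultures is not stated, so these p-values measure only the spread between libraries, which may be technical. All 3 replicate pairs share a file form, while 20 of the 25 other pairs have lists of different form. The Ishikawa value is also a score and not a fold enrichment. The placements thus mix form and kind of value with line, and these p-values cannot tell them apart.

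**Figure D3:**
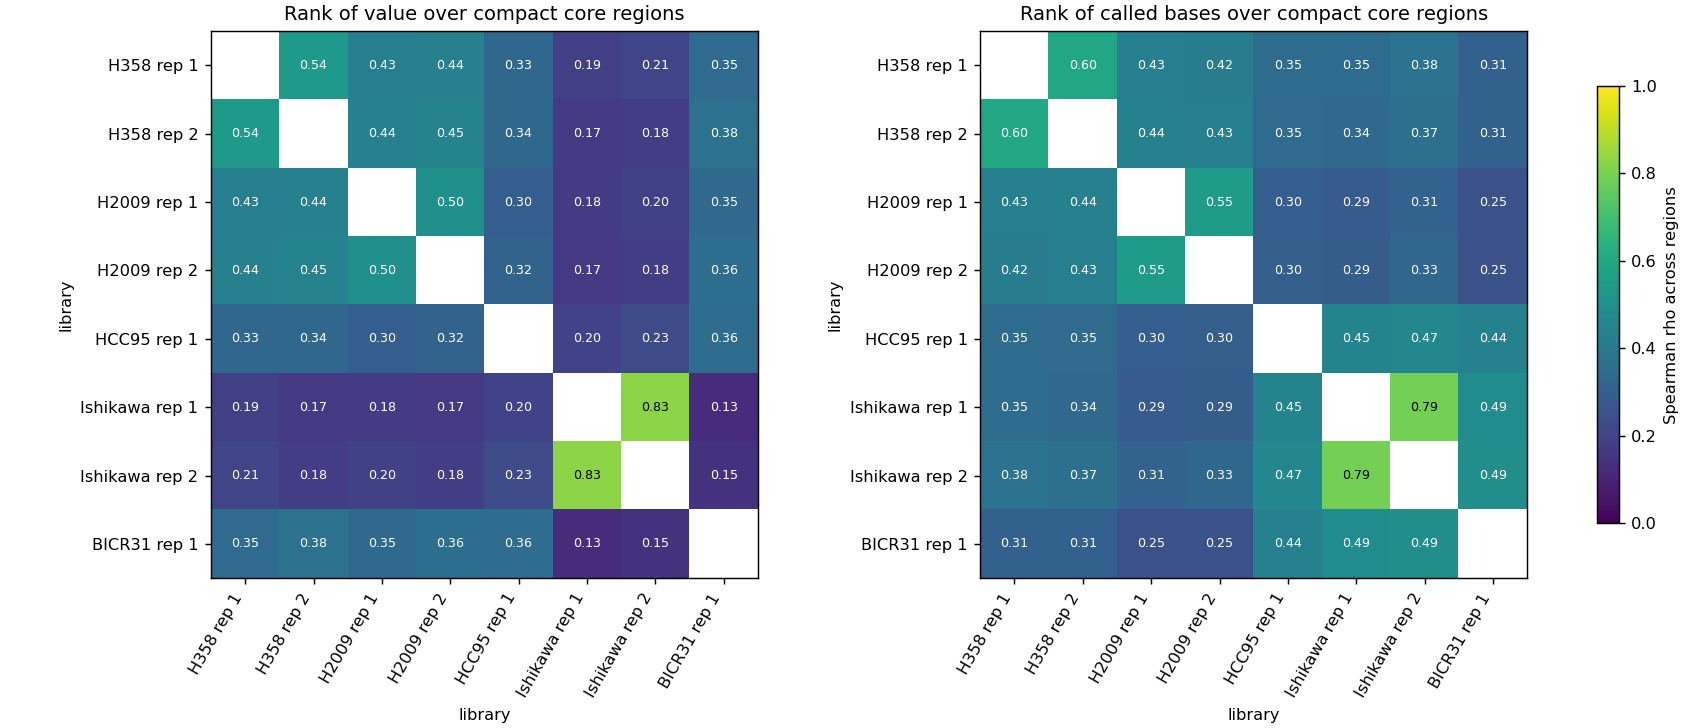
Spearman correlation across 7241 compact core regions between each pair of the 8 untreated libraries (both axes list the libraries, colour and number give rho), for the value of the strongest peak (left) and for the called bases (right). The Ishikawa replicates stand out at 0.83 and 0.79, and the Ishikawa lists have the lowest correlations of value with the other lines.

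Agreement also differed by file form and line. Within the 4 narrowPeak lists the replicates averaged 0.522 and the pairs of H358 with H2009 0.439, which is a difference of 0.0834 (exact one-sided permutation p = 0.333, the smallest that 3 assignments allow). HCC95 with BICR31, both broadPeak, reached 0.356. The 20 pairs of lines with lists of different form averaged 0.246. Of these, the 12 pairs of Ishikawa with another line averaged 0.182 (0.129 to 0.233), and the 8 pairs without Ishikawa 0.340 (0.299 to 0.375), a range that takes in the value of HCC95 with BICR31. Form, line and kind of value (a score in Ishikawa, fold enrichment in the other lines) cannot be told apart for Ishikawa.

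The correlation of called length averaged 0.647 over replicate pairs and 0.367 over pairs of different lines (difference 0.280, exact one-sided permutation p = 0.00238 and 0.00357 adjusted over the same 3 tests). Within the narrowPeak lists the means were 0.574 and 0.432 (exact permutation p = 0.333). Called length is limited by the rule on merged width, so these tests are not free of the selection. Across the regions its correlation with merged width was 0.890 and 0.780 in Ishikawa. The mix of file form and line named above holds here too. For called length the 12 Ishikawa pairs with other lines averaged 0.381 against 0.353 for the 13 pairs without it. The highest pair of different lines was Ishikawa replicate 2 with BICR31, at 0.493, which by value had a correlation of 0.147. Within a list, the correlation of called length with value differed in sign by form, at 0.428 and 0.452 in Ishikawa, 0.0246 and 0.00158 in H358, 0.124 and 0.0912 in H2009, -0.403 in BICR31 and -0.256 in HCC95.

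The compact core gave lower agreement of value than the wider core regions in 25 of 28 pairs of libraries. Its mean correlation was 0.281 between lines, against 0.361 over the 1168 core regions of 3000 bp or more, and 0.624 between replicates, against 0.709 in the wider regions. For H358 with H2009 it was 0.439 in the compact core and 0.589 in the wider regions. The other 3 pairs went the other way, with 0.827 in the compact core and 0.807 in the wider regions between the Ishikawa replicates, 0.202 and 0.181 for HCC95 with Ishikawa replicate 1, and 0.233 and 0.169 for HCC95 with Ishikawa replicate 2. These are descriptions, and the width of the regions differs by construction.

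In some of the regions 1 line stood outside all others. A region was counted when each library of a line had a higher percentile, or each a lower one, than every library of the other lines. BICR31 was highest in 1274 compact core regions (17.6%; over all core regions 16.3%) and lowest in 802 (11.1%; 12.0%). Ishikawa was highest in 1180 (16.3%; 21.3%) and lowest in 582 (8.04%; 7.06%). HCC95 was highest in 715 (9.87%; 9.19%) and lowest in 1481 (20.5%; 21.0%). H358 was highest in 419 (5.79%; 5.30%) and lowest in 303 (4.18%; 4.21%), and H2009 was highest in 306 (4.23%; 3.73%) and lowest in 556 (7.68%; 7.91%). The compact regions make up most of the core, so their shares lie near those of the core, Ishikawa's higher ones excepted. Lines with 1 library meet the rule more readily than lines with 2.

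Single regions, chosen for their difference, show how far the lines parted. At chr16:67279286-67281510 the Ishikawa scores of 370 and 328 stood at percentiles 89.0 and 80.0, while the 6 libraries of the other lines lay at percentiles of 1.41 to 14.2, and no base was called in all 8. At chr1:54872159-54874308 Ishikawa had scores of 514 and 633 (percentiles 98.3 and 98.8), the H358, H2009 and HCC95 libraries lay at percentiles of 7.70 to 14.2, and BICR31 lay at 54.6. At chr1:143686405-143687739 the Ishikawa scores were 55.3 and 51.8, near the lowest value of those lists, and the libraries of the other lines lay at percentiles of 84.5 to 98.8.

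In H358, chr6:35419957-35421883 reached fold enrichments of 9.32 and 9.76, against 6.07 and 4.06 in H2009. H358 was low at chr3:50357348-50360008, with 3.38 and 3.86, against 5.32 and 5.13 in H2009. H2009 stood high at chr9:34619733-34620533, with fold enrichments of 8.77 and 10.5, against 3.14 and 7.03 in H358. BICR31 was nearly as high there, at percentile 96.5 beside 97.1 and 99.7 in H2009. The H358 replicates themselves lay far apart there, at percentiles of 1.29 and 82.2. H2009 was low at chr12:56726623-56728950, with 3.73 and 4.43, against 6.59 and 7.94 in H358, and Ishikawa had scores of 632 and 735 there.

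HCC95 had a fold enrichment of 5.53 (percentile 96.3) at chr1:20810848-20813387, where the 7 other libraries lay at percentiles of 4.86 to 60.7. It had 2.38 (percentile 0.980) at chr1:234508303-234510202, where they lay at 67.9 to 98.5. BICR31 had 5.12 (percentile 89.5) at chr1:8271128-8273345, where they lay at 4.87 to 30.2, and 2.85 (percentile 3.55) at chr1:151584066-151585579, where they lay at 73.2 to 95.5. HCC95 and BICR31 have 1 library each, so these values have no replicate.

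Compact core regions were most dense on chromosomes 19, 17, 22 and 16. Density was taken per Mb of the span from the first to the last merged region of a chromosome. It was 7.72 per Mb on chromosome 19 (456 regions), 5.95 on chromosome 17 (483), 4.92 on chromosome 22 (173) and 4.18 on chromosome 16 (377), against 2.59 over all 22 chromosomes. The lowest densities were 1.12 on chromosome 18 (87 regions), 1.33 on chromosome 13 (128) and 1.46 on chromosome 4 (279). Chromosome 19 is known as the most gene-rich human chromosome for its length, and chromosomes 13 and 18 as gene-poor. The density of all merged regions followed the same order closely (Spearman correlation 0.957 over the 22 chromosomes, as a description), but its span was narrower, since the highest chromosome exceeded the lowest 2.50-fold for merged regions and 6.92-fold for the compact core.

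**Figure D4:**
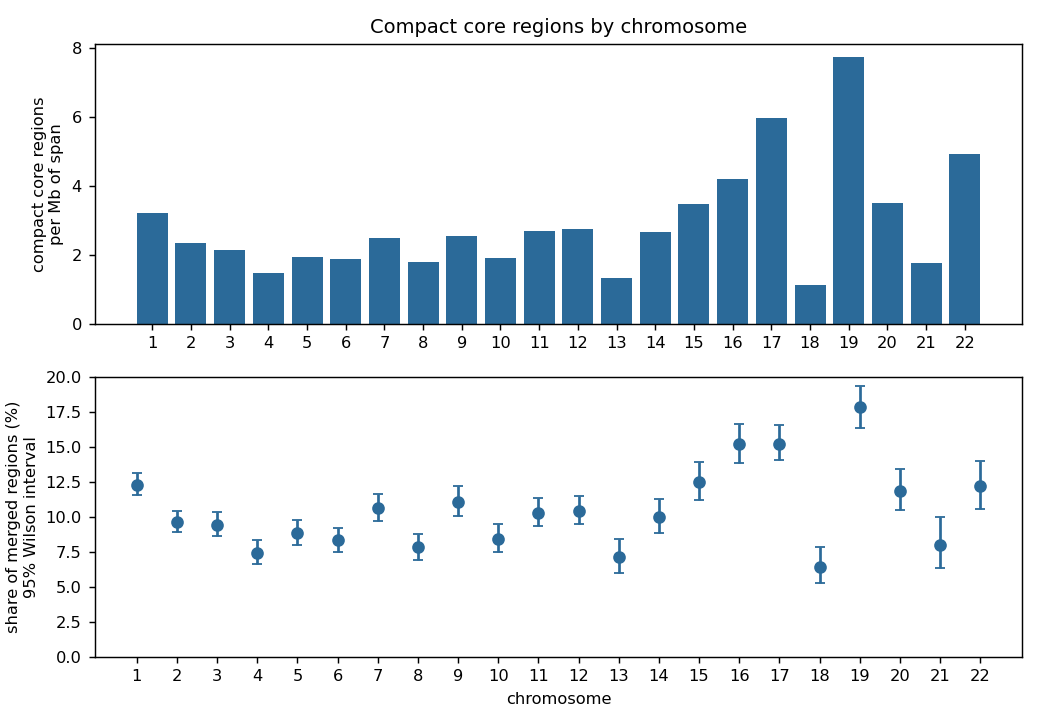
Compact core regions by chromosome (x axis). Top, number per Mb of the span of merged regions; bottom, share of the chromosome's merged regions in percent with 95% Wilson intervals (counting error only). Chromosome 19 is highest in both, at 7.72 per Mb and 17.8%, and chromosome 18 lowest, at 1.12 per Mb and 6.45%.

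The compact core's share of merged regions was also highest on chromosomes 19, 17 and 16, but not on chromosome 22. The share was 17.8% on chromosome 19 (95% Wilson interval 16.4 to 19.4), 15.3% on chromosome 17 (14.0 to 16.5) and 15.2% on chromosome 16 (13.8 to 16.7). On chromosome 22 it was 12.2% (10.6 to 14.0), below chromosomes 15 (12.5%) and 1 (12.3%). It was 6.45% on chromosome 18 (5.26 to 7.89), 7.12% on chromosome 13 (6.02 to 8.41) and 7.45% on chromosome 4 (6.65 to 8.33). The intervals of chromosomes 19, 17 and 16 do not overlap those of chromosomes 18, 13 and 4, and cover counting error only. The compact part of the core was highest on chromosome 15, at 92.2% of 308 core regions, and lowest on chromosome 12, at 80% of 460.

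Spacing between the regions varied widely, and was not compared with that of all merged regions. The nearest other compact core region lay at a median of 57.1 kb (57067 bp; quartiles 24264 and 135861 bp), within 10 kb in 643 cases (8.88%), and beyond 1 Mb in 131. Of 2719 windows of 1 Mb with a merged region, 1831 held at least 1 compact core region, and the 132 windows with 10 or more held 1741 of them, or 24.0%. The fullest window was chromosome 16 from 30000001 to 31000000, with 31 of its 63 merged regions, followed by chromosome 19 from 58000001 to 59000000 (24 of 59) and chromosome 16 from 67000001 to 68000000 (24 of 61).

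Ranks shifted by chromosome in a way that replicates shared. For each library the rank of a region among the compact core was set against its mean over the 8 libraries, and the median was taken by chromosome. On chromosome 12 the Ishikawa libraries stood 13.7 and 15.6 points above the mean, over 368 regions. On chromosome 10 the H358 libraries fell below it by 11.5 and 12.0 points and the Ishikawa libraries stood 7.80 and 8.32 above it, over 256 regions. On chromosome 14 H358 stood 9.52 and 8.03 points above. BICR31 stood 10.9 points above on chromosome 19, and HCC95 7.45 above on chromosome 7 and 11.1 below on chromosome 21 (-11.1, 68 regions).

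**Figure D5:**
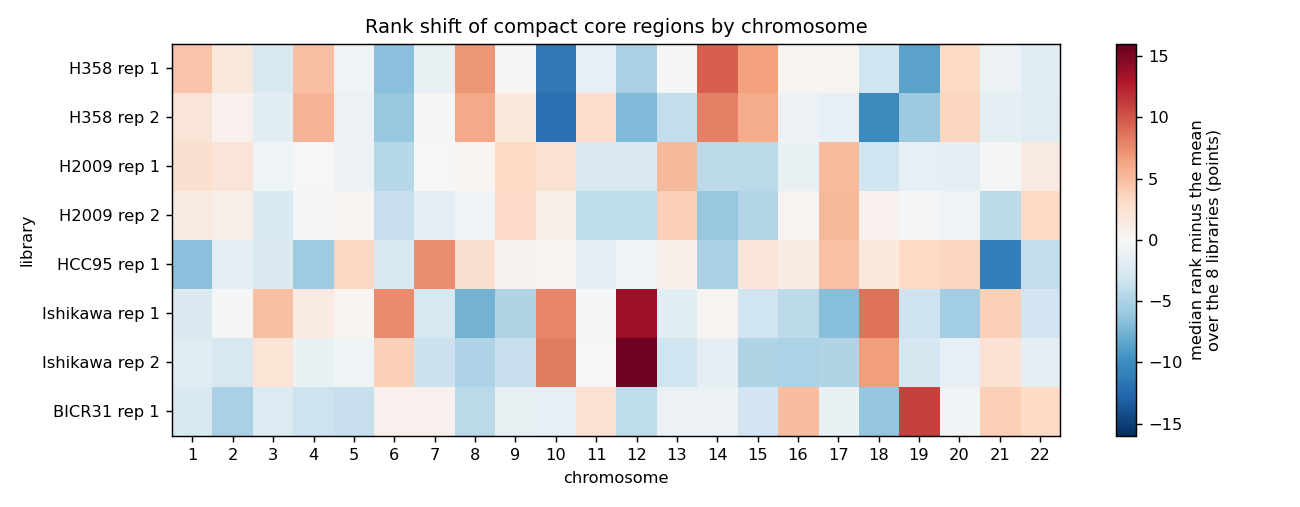
Median rank of compact core regions on each chromosome (x axis) in each of the 8 untreated libraries (y axis) minus the mean over the 8, in points of 100 (colour; red is above the mean, blue below). Replicates of a line show the same pattern, with chromosome 12 at 13.7 and 15.6 in Ishikawa and chromosome 10 at -11.5 and -12.0 in H358.

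The replicates of a line had like profiles over the 22 chromosomes. The Spearman correlation of the shifts was 0.885 between the H358 replicates, 0.881 between the Ishikawa replicates and 0.783 between the H2009 replicates. Between lines it ran from -0.586 to 0.178. The shifts of the 8 libraries are taken from their own mean, which pushes correlations between lines below 0, and they have no test. Copy number of the lines was not measured in these files and its part in the shifts was not tested.

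The 4 further H2009 lists offer libraries that had no part in choosing the regions. They were short, with 2281 peaks in e3KRAB1, 1349 in e3KRAB2, 1938 in Empty and 3204 in Control. A peak was found in 1411 compact core regions in e3KRAB1 (19.5%, 95% Wilson interval 18.6 to 20.4; over all merged regions 3.17%) and in 844 in e3KRAB2 (11.7%, 10.9 to 12.4; 1.89%). In Empty it was found in 1095 (15.1%, 14.3 to 15.97; 2.70%) and in Control in 1921 (26.5%, 25.5 to 27.6; 4.42%). Most peaks of the short lists lay in the compact core, with 63.5% in e3KRAB1, 63.8% in e3KRAB2, 57.6% in Empty and 62.0% in Control. Of the peaks in the longer untreated H2009 lists, 37.9% and 38.3% lay there. The part of list length in this was not tested. With 1 library per label the lists were not compared with each other by a test. Among the 1349 strongest peaks of each list, the compact core regions found numbered 913 in e3KRAB1 (12.6%), 844 in e3KRAB2 (11.7%), 856 in Empty (11.8%) and 915 in Control (12.6%), so the 4 counts lay closer together at equal length.

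Other regions that H2009 carried in both untreated replicates were found less often. Of 6973 such regions outside the core, 5.19% had a peak in e3KRAB1, 3.10% in e3KRAB2, 4.88% in Empty and 7.41% in Control. The compact core exceeded these by 14.3, 8.56, 10.2 and 19.1 percentage points, and by 11.3, 6.18, 8.85 and 16.2 points within quintiles of H2009 fold enrichment. Median width was 2056 bp in the compact core and 722 bp in all regions lacking a peak in at least 1 list. The width of the 6973 regions alone was not taken, and the part of width was not tested. Core regions of 3000 bp or more had a peak in 17.2% of cases in e3KRAB1, 9.93% in e3KRAB2, 16.9% in Empty and 23.6% in Control. Within quintiles of H2009 fold enrichment the compact core had a lower share than these wider regions in 19 of 20 comparisons, 5 for each list. In the highest quintile it was 30.1% in the compact core and 39.7% in the wider core in e3KRAB1, 19.4% and 20.6% in e3KRAB2, 24.6% and 39.7% in Empty, and 38.8% and 44.1% in Control, with 68 wider regions in that quintile.

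Regions found in more of the short lists ranked higher, in H2009 and in the other lines. Of the compact core, 4089 regions (56.5%) had a peak in none of the 4 short lists and 175 (2.42%) in all 4. The median of the mean percentile in the untreated H2009 lists was 70.5 for the regions found in none and 92.7 for those found in all 4, with 78.0, 83.0 and 86.9 between. In the lists of the other 4 lines the medians were 73.5, 79.2, 82.9, 84.6 and 87.2 in the same order. Median width was 2027, 2077, 2085.5, 2109 and 2089 bp.

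Summits in the short lists lay farther from those of the untreated libraries than these lay from each other. The median distance to H2009 replicate 1 was 128 bp in e3KRAB1, 140 bp in e3KRAB2, 119 bp in Empty and 128 bp in Control. In the same regions the untreated H2009 replicates lay 96, 96, 90 and 99 bp apart. To the H358 libraries the distances were 118 to 138 bp.

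Compact core regions were a smaller share of merged regions near MYC, KLF5 and PARD6B than over all chromosomes, and a larger one near USP12, in small counts. Gene positions here are textbook hg19 positions rounded to 10 kb, not from the files. Within 500 kb of MYC, whose protein is a transcription factor that promotes growth, 2 of 65 merged regions were compact core (3.08%). The share was 10.5% over all merged regions and 7.82% over those of chromosome 8. Core regions of any width numbered 5 of the 65 near MYC, against 12.2% of all merged regions. The region at chr8:128806031-128808820 had percentiles of 6.92 and 9.69 in H358, 9.001 and 38.6 in H2009, 69.1 and 63.5 in Ishikawa, 58.2 in BICR31 and 24.9 in HCC95. The region at chr8:129188080-129190370 had 17.3 and 6.55 in H358, 0.0765 and 0.163 in H2009, 65.4 and 66.0 in Ishikawa, 9.94 in BICR31 and 4.08 in HCC95. Both lay below the compact core's median percentile in every library, and lower in every library of the other lines than in either Ishikawa library.

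Around KLF5, an epithelial transcription factor gene, 1 of 45 merged regions was compact core (2.22%, against 7.12% over chromosome 13). It lay at chr13:73300237-73303230, had fold enrichments of 8.13 and 7.40 in H358 and 5.98 and 6.76 in H2009, and held no base called in all 8 libraries. Around PARD6B, a cell polarity gene, there were 4 of 68 (5.88%, against 11.9% over chromosome 20). Around USP12, a deubiquitinase gene on chromosome 13, there were 4 of 27 (14.8%). The USP12 region at chr13:27824410-27827281 reached fold enrichments of 6.78 and 7.003 in H358, 6.26 and 9.56 in H2009 and scores of 493 and 594 in Ishikawa. The PARD6B region at chr20:49546127-49548966 had 5.49 and 6.86 in H358, 6.25 and 5.79 in H2009, and scores of 541 and 491 in Ishikawa.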

How the data were processed

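H3K27ac peak lists of 12 libraries were used as deposited. The submitters' processing notes name BWA and the build hg19. The peak caller and its control were not given in the sources used here (Ishikawa peaks have names starting with MACS), and each sample has its own list. The deposited values are a fold enrichment ratio, a −log10 p, a −log10 q, a score per peak and, in narrowPeak lists, the summit's offset from the peak start, another kind of value, read as counted from 0. Peaks off chromosomes 1 to 22 were left out, 6544 of 233818 (2.80%). A region's value in a list was the highest fold enrichment (score in Ishikawa) among its peaks, and percentiles are within the list. Groups followed the sample titles. Replicate and cross-line pairs were compared by exact permutation over libraries; shares carry 95% Wilson intervals. Regions named are, by rule, extremes of rank, width, summit range and line, the 3 fullest 1 Mb windows, and members within 500 kb of 4 genes of the study. Alternatives were the width limit, merging, coverage, list length, other values and leaving out each library. The rule, lists and tests were chosen with earlier results of these data known. Scripts were tested on simulated data (Python 3.11.15, pandas 2.3.3, numpy 2.4.6, scipy 1.17.1, matplotlib 3.10.9).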

Additional observations from a re-analysis of the deposited data

Results flagged for a closer look

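Chromosome X lay outside the rule. On it, 160 of 1898 merged regions had a peak in all 8 lists and a width under 3000 bp (8.43%, 95% Wilson interval 7.26 to 9.77), of 167 core regions of any width. These peaks belong to data that no comparison above uses, so they are given here. The density of 1.03 per Mb was below that of chromosome 18, the lowest used, at 1.12.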

How the results depend on the processing

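The number of compact core regions, 7241, was 3314 with a width limit of 2000 bp, 91 when peaks had to cover 50% of the region in every list, and 3556 in the higher-ranked 50% of each list; it was 8127 with a limit of 4000 bp, 6344 with lists of equal length (22850 peaks) and 7336 to 7876 without 1 library. Their share of the core, 86.1%, was 39.4%, 98.9% and 95.8% in the first 3 of these settings, 96.6% with 4000 bp, 91.0% with equal lengths and 85.9% to 93.0% without 1 library. The chromosome 19 share of 17.8% was 20.6% with no width limit and 18.4% to 21.3% without 1 library. The rank differences of 0.343 (value) and 0.280 (called length) were 0.207 to 0.416 and 0.208 to 0.320 without 1 library (exact permutation p = 0.00952 in each), lowest without an Ishikawa replicate, and 0.0834 and 0.142 in the narrowPeak lists alone, where 3 assignments cannot reach 0.05 (exact permutation p = 0.333). Except in the narrowPeak lists alone, both rank differences mix file form with line. Called length is also limited by the rule on merged width, so its tests are not free of the selection. The summit difference of -1.25 bp ran from -8.5 to 7 bp without 1 library, and was 4.5 and 7 bp without H358 replicate 1 and 2; the cause was not tested. The recovery differences were 9.74 (e3KRAB1), 8.72 (Empty) and 9.64 points (Control) with short lists of equal length (1349 peaks), against 8.56 in e3KRAB2, and 11.3, 6.18, 8.85 and 16.2 within fold enrichment quintiles. No paired analysis was possible because the tests compare pairs of libraries and replicate numbers tie no libraries of different lines. Depth is unknown, and the short lists limit what they can show.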
